A study of Mus musculus with 12 samples.

Results

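The Ly6 family genes of the mouse colon described here are Ly6a, Ly6c1, Ly6c2, Ly6d, Ly6e, Ly6g, Ly6h, Ly6i and Lypd8. They are 9 of the 54532 genes listed for each library, and all 9 were among the 17658 genes that passed the filter on low counts. They were found by gene symbol, and they had been chosen from their measured levels across the 4 groups of the study. Their levels and differences are therefore given as a description, and no p is given for any of the 9 genes. The first question was whether Ly6g ran with S100a8, a gene of neutrophils, or with Hoxb13 and Hoxd13, genes of the distal colon. The second was whether Ly6a ran with genes of the repairing epithelium.

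Ursolic acid (UA) is a plant triterpenoid, and dextran sulfate sodium (DSS) in the drinking water injures the colon epithelium and is a common model of ulcerative colitis. RNA came from colon tissue of 12 male C57BL/6 mice, which arrived at 6 weeks of age and had 1 week to adapt, with 3 mice in each of 4 groups. The Con mice received no DSS and the other 3 groups received 3% (w/v) DSS for 5 days. UA was given by gavage at 200 mg/kg a day. The UA+DSS mice received it for 7 days, starting 1 day before DSS, and the DSS+UA mice received it for 4 days, starting 3 days after DSS began. According to the methods, Con and DSS mice were gavaged with vehicle, while the label of Con calls them untreated. The model is an acute one, and the stretch of colon that was sampled is not given in the sources used here.

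Total counts were 15566216 to 19498383 a library. Genes that mark the colon epithelium were high in all 12 libraries, with Krt8 at 2392 CPM or more (CPM, the gene's share of its library's counts after TMM scaling, in parts of 1000000) and Epcam at 772 CPM or more. The libraries differed in position along the colon. A position score, the mean log2 CPM of 5 distal Hox genes minus that of 6 proximal ones, was -5.70 to -4.16 in UA+DSS, 0.37 to 3.10 in DSS and 4.11 to 5.06 in DSS+UA. Within Con it was 5.53 in Con 1 but -3.03 and -1.83 in Con 2 and Con 3. The ranges of UA+DSS, DSS and DSS+UA did not overlap. In any comparison among these groups, also of UA+DSS or DSS+UA with DSS, treatment and position cannot be told apart. No Con library lay within the DSS range, so DSS and Con were not matched for position either. The library DSS 2 held the highest level of all 16 tested neutrophil genes.

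Ly6 proteins are small and rich in cysteines, which fold the chain into the 3-fingered Ly6/uPAR domain, and most are tethered to the outer cell membrane by a glycolipid anchor. Ly6G is the surface antigen used to recognise mouse neutrophils, Ly6C (from Ly6c1 and Ly6c2) marks inflammatory monocytes, and Ly6A (Sca-1) marks blood stem cells, endothelium, activated lymphocytes and the regenerating epithelium of the injured colon. Ly6D is found in squamous epithelium and early B cells, Ly6E is an interferon-induced protein found in many tissues, Ly6H is mostly neuronal, and Ly6I is a myeloid relative of Ly6A and Ly6C. Lypd8 is secreted by colonocytes and keeps flagellated bacteria away from the epithelium.

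In the GRCm38 annotation, 8 of the 9 genes lie on chromosome 15. Ly6g (ENSMUSG00000022582) spans chr15:75155240-75159126 on the plus strand, beside Ly6c2 at chr15:75108158-75111970, Ly6c1 at chr15:75044018-75048830, Ly6a (ENSMUSG00000075602) at chr15:74994877-74998031 and Ly6i at chr15:74979534-74983430, all on the minus strand. Ly6e (chr15:74955051-74959905, plus strand), Ly6d (chr15:74762056-74763620) and Ly6h (chr15:75551268-75567255) lie on either side, the latter 2 on the minus strand. Lypd8 lies apart, at chr11:58379043-58390728 on the plus strand. No other annotated gene overlaps any of them. Their main coding transcripts encode 127 to 160 amino acids with 10 to 13 cysteines, except Lypd8 with 255 amino acids and 18 cysteines.

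The 5 clustered genes are relatives that share sequence, which matters for counts of short reads. Ly6c1 and Ly6c2 are near copies, identical at 94.7% of aligned amino acids and 97.7% of coding bases. The other pairs among the 5 were identical at 61.9% to 71.6% of amino acids and 78.3% to 86.4% of coding bases. Of all stretches of 50 bases in the exons of Ly6c1, 32.8% also occurred in another gene, mostly in Ly6c2. The share was 19.0% in Ly6a (mostly shared with Ly6c1), 14.4% in Ly6c2, 4.76% in Ly6i, 0.448% in Ly6g, 0.206% in Ly6h and 0% in Ly6d, Ly6e and Lypd8. The handling of reads that match several genes is not given in the sources used here, so the split of counts among Ly6a, Ly6c1 and Ly6c2 is uncertain, while Ly6g could be counted almost entirely from its own sequence. The first 60 coding bases, from the GENCODE annotation of GRCm38, show how close they are at the start. Capitals mark bases that differ from Ly6a, of which there are 6 in Ly6i, 2 in Ly6c1, 3 in Ly6c2 and 7 in Ly6g.
Ly6a: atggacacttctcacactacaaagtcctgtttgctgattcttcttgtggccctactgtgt
Ly6i: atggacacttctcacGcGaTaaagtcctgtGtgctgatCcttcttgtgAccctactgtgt
Ly6c1: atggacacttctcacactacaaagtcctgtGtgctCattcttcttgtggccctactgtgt
Ly6c2: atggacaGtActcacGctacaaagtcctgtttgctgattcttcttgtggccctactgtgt
Ly6g: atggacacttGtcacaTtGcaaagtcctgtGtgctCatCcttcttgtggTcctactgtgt

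The 9 genes differed widely in level. Divided by exon length, the mean Con level of Lypd8 was 4239 CPM per kb, followed by Ly6a at 283, Ly6e at 141, Ly6g at 46.7, Ly6c1 at 30.1, Ly6c2 at 7.97 and Ly6d at 7.64 CPM per kb. Ly6i (0.32 CPM per kb) and Ly6h (0.0465 CPM per kb) were near the limit of detection, with 21 and 11 counts in all over the 3 Con libraries. The Con value of Ly6g rested on Con 1, without which it was 10.5 CPM per kb and so below that of Ly6c1 (27.7). In DSS+UA, Ly6g stood at 345 CPM per kb and so above Ly6e at 180 CPM per kb.

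**Figure D1:**
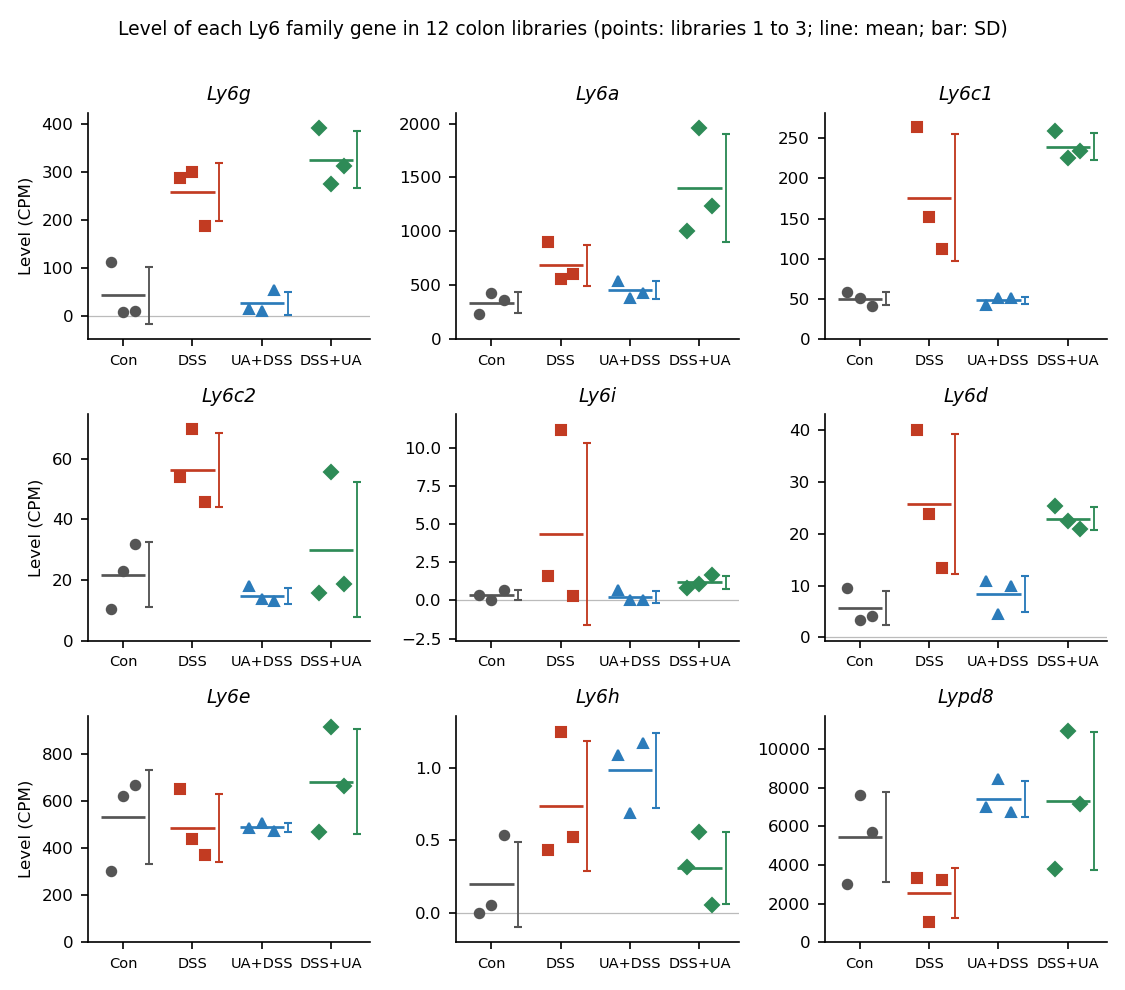
Level (CPM, linear axis, 1 panel a gene) of the 9 Ly6 family genes in each of 12 colon libraries, with the mean of each group as a line and its SD as a bar beside it. Ly6g, Ly6c1 and Ly6d were high in DSS and DSS+UA, Ly6a had its highest values in DSS+UA, and Lypd8 its lowest value in DSS 2; an SD bar that reaches below 0 belongs to a group with 1 library far from the others.

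Ly6g was high in both groups whose colon had DSS without early UA. It stood at 112, 8.26 and 11.5 CPM in Con 1, 2 and 3, at 286, 300 and 188 CPM in DSS, at 14.7, 12.0 and 54.5 CPM in UA+DSS, and at 390, 274 and 311 CPM in DSS+UA. The 6 libraries of DSS and DSS+UA therefore all lay above the 6 of Con and UA+DSS, whose ranges overlapped each other, as did those of DSS and DSS+UA. The mean was 44.0 ± 59.2 CPM in Con, 258 ± 60.6 in DSS, 27.1 ± 23.8 in UA+DSS and 325 ± 59.3 in DSS+UA (SD, n = 3). The fitted log2 difference was 2.55 ± 0.92 (SE) between DSS and Con, -3.26 ± 0.95 between UA+DSS and DSS, 0.33 ± 0.87 between DSS+UA and DSS and 3.58 ± 0.97 between DSS+UA and UA+DSS. Without Con 1, the difference between DSS and Con was 4.70. In these whole-tissue samples, fewer cells of a type and less RNA per cell cannot be told apart.

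S100a8, a chain of the calprotectin that fills neutrophils, had another pattern in detail. It stood at 0.155, 0.277 and 0 CPM in Con, at 221, 6803 and 315 CPM in DSS, at 2.56, 9.49 and 26.9 CPM in UA+DSS and at 260, 48.8 and 271 CPM in DSS+UA. DSS 2 held 25.4 times the S100a8 of the other two DSS libraries on average, but 1.26 times their Ly6g. Con 1 held 11.3 times the Ly6g of Con 2 and Con 3 on average, with S100a8 at 3 counts in Con 1. DSS+UA 2 held the least S100a8 of its group, 0.184 of the mean of the others, and 0.781 of their Ly6g. The ratio of Ly6g to S100a8 was 0.044 in DSS 2, 0.599 to 1.3 in the other DSS libraries, 1.26 to 5.75 in UA+DSS and 1.15 to 5.61 in DSS+UA.

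The whole list of 18 neutrophil genes, Ly6g not among them, gave the same picture as S100a8. Its summed level was 7.48 to 11.2 CPM in Con, 789 to 20543 CPM in DSS, 35.6 to 102 CPM in UA+DSS and 183 to 787 CPM in DSS+UA, and in Con 6 of the 18 genes had at most 3 counts in all. Between DSS and Con, 16 of the 16 tested genes were called higher (edgeR, adjusted p under 0.05), among them S100a9, the partner of S100a8, and Mmp9, a matrix protease. DESeq2 called 7 of the 16 and gave no adjusted p for the other 9, and limma-voom called 8. Between UA+DSS and DSS, 15 were called lower (5 by DESeq2, again with no adjusted p for 9, and 5 by limma-voom) with a median log2 difference of -6.13, where Ly6g differed by -3.26. Between DSS+UA and DSS, all 16 estimates were below 0 with a median of -3.71 and 4 were called lower, among them Itgam, an integrin chain of myeloid cells (log2 difference -2.81 ± 0.67 SE, edgeR adjusted p = 0.0367), where the Ly6g difference was 0.33. DESeq2 called 5 there and limma-voom 0. Without DSS 2 that median was -0.97 and edgeR called 0 of the 16. Between DSS+UA and UA+DSS, 15 of 16 estimates were above 0 with a median of 2.22; 1 gene, the chemokine receptor Cxcr2, was called higher, and 11 were without DSS 2.

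Hoxb13 and Hoxd13, which are read in the hindmost part of the gut, moved with Ly6g in other libraries. Hoxb13 stood at 542, 62.8 and 99.9 CPM in Con, at 215, 77.2 and 90.7 CPM in DSS, at 0.385, 0.0624 and 13.2 CPM in UA+DSS and at 328, 478 and 433 CPM in DSS+UA. Hoxd13 stood at 178, 0.222 and 0.588 CPM in Con, at 94.3, 21.4 and 3.20 CPM in DSS, at no more than 0.128 CPM in UA+DSS and at 95.9 to 156 CPM in DSS+UA. Con 1 was the Con library with high Hoxd13 and also that with high Ly6g, and UA+DSS 3, with the most Ly6g of its group, also had the most Hoxb13 (13.2 CPM) and the most S100a8 (26.9 CPM). DSS 3, in contrast, held 188 CPM of Ly6g beside 3.20 CPM of Hoxd13, and Con 1 held 112 CPM of Ly6g beside 178 CPM of Hoxd13. Hoxb13 was called lower in UA+DSS than in DSS (log2 difference -4.80 ± 1.40 SE, edgeR adjusted p = 0.0388) and higher in DSS+UA than in UA+DSS (6.48 ± 1.51, adjusted p = 0.0196). It was not called between DSS and Con (-0.87 ± 1.19, adjusted p = 0.608), where the Ly6g difference was 2.55.

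Likeness was described by the correlation of log2 CPM over the 12 libraries, which share the 4 groups, so no p is given. Pearson's r of Ly6g was 0.772 with S100a8 (Spearman's rho 0.797), 0.752 with the mean of the neutrophil genes (0.797), 0.667 with Hoxb13 (0.552), 0.846 with Hoxd13 (0.692) and 0.833 with the position score (0.685). Without the 2 libraries farthest from the median of the other measure, r was 0.719 with S100a8, 0.501 with Hoxb13, 0.879 with Hoxd13 and 0.752 with the position score. After the group means were subtracted, r was 0.286 with S100a8 and 0.271 with the neutrophil genes, against 0.796 with Hoxb13, 0.776 with Hoxd13 and 0.896 with the position score. Without Con 1 these within-group values were 0.443 with S100a8, 0.462 with the neutrophil genes, 0.9 with Hoxb13, 0.109 with Hoxd13 and 0.561 with the position score. Without both Con 1 and UA+DSS 3 they were 0.24 with S100a8, 0.465 with the neutrophil genes, 0.323 with Hoxb13, 0.716 with Hoxd13 and 0.58 with the position score. Across groups Ly6g thus ran with both kinds of gene. The within-group values for the 2 Hox genes shifted with single libraries. That of Hoxd13 fell without Con 1, but was 0.944 without UA+DSS 3 alone and 0.716 without both. Hoxd13 had 2, 1 and 0 counts in UA+DSS, so its differences within that group lie at the floor. The same holds for S100a8 within Con, where it had 3, 5 and 0 counts, and for several of the neutrophil genes there. Once Con 1 was left out, the value of Hoxb13 rested on UA+DSS 3. These differences between correlations were not tested. With the position score as a covariate in the fit, the Ly6g difference was 2.95 between DSS and Con, -0.53 between UA+DSS and DSS, -0.96 between DSS+UA and DSS and -0.43 between DSS+UA and UA+DSS. The score did not overlap among UA+DSS, DSS and DSS+UA, so the adjusted values that compare them extrapolate and cannot separate position from treatment. Within groups the score varied most in Con, with 5.53 in Con 1 against -3.03 and -1.83 in Con 2 and Con 3. None of these lay within the DSS range of 0.37 to 3.10, so DSS and Con were not matched for position either.

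**Figure D2:**
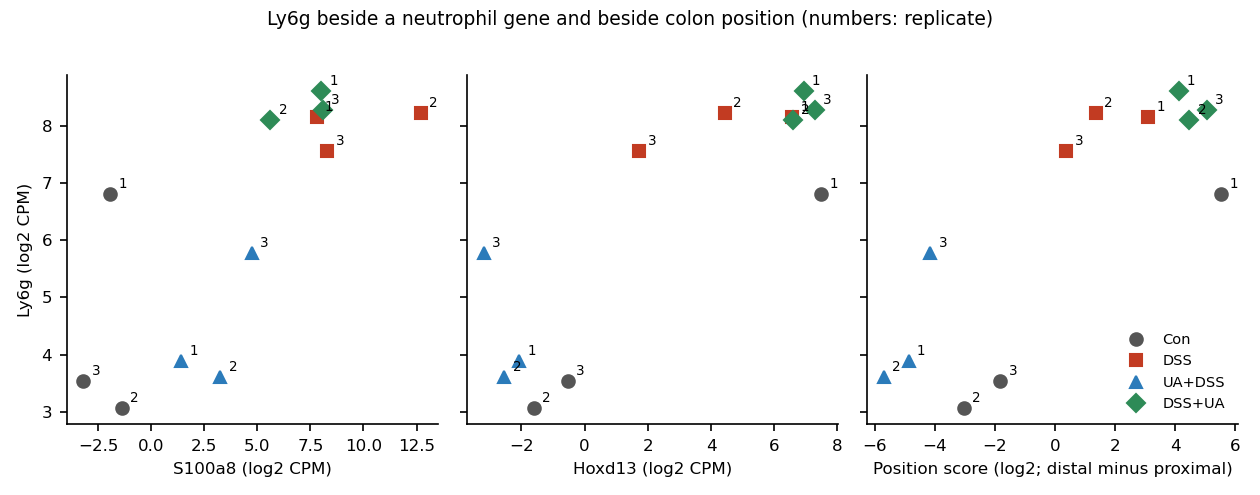
Ly6g (log2 CPM, vertical axis) in 12 libraries against S100a8 (log2 CPM), Hoxd13 (log2 CPM) and the position score (log2, distal minus proximal Hox genes), with colour and shape for the group and a number for the replicate. DSS 2 lies far to the right for S100a8 at the same height as the other DSS libraries, Con 1 lies far above Con 2 and 3 at a low S100a8, and DSS 3 lies high at a low Hoxd13.

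Among 13717 other genes whose log2 CPM averaged 1 or more, the 5 most like Ly6g over the 12 libraries included Ass1, an enzyme of arginine synthesis (r = 0.964), N4bp3 (0.961), Krt36, a hair-type keratin (0.959), and 9130401M01Rik (0.955). Krt36 averaged 0.574 CPM in Con, 14.1 in DSS, 0.302 in UA+DSS and 13.4 in DSS+UA. Ly6d ranked 82nd with r = 0.913 and Ly6c1 ranked 154th with r = 0.893. Hoxd13 ranked 427th, S100a8 1008th and Hoxb13 1915th. Ly6c2 (r = 0.377) and Ly6e (r = -0.0502) were less like it.

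Promoter windows, from 250 bases before to 50 after the start, were found for 4 of the 9 genes in RefSeq (GRCm38.p6), with 2 windows each. Those of Ly6g are offset by 68 bases, of Ly6c1 by 174 and of Ly6c2 by 34, so they share most or part of their bases, and those of Lypd8 do not overlap. They are shown because Ly6g and Ly6c1 varied together and Ly6c2 did not. Each window was searched on both strands for TATAAA (a core promoter box), TTCNNNGAA (a motif of STAT factors), the core of the interferon-stimulated response element, CCAATAAA (letters bound by HOX13 factors) and GAGGAAGT (a core bound by PU.1, a myeloid factor). The letters were chosen after the sequences had been seen. No 2 of these motifs overlapped in the stretches printed. The following 150 bases end just before the first start of each gene and read 5′ to 3′ on the gene's strand, with motif matches in capitals, at chr15:75155111-75155260 (Ly6g, plus strand), chr15:75048838-75048987 (Ly6c1, minus strand), chr15:75111972-75112121 (Ly6c2, minus strand) and chr11:58378882-58379031 (Lypd8, plus strand).
Ly6g: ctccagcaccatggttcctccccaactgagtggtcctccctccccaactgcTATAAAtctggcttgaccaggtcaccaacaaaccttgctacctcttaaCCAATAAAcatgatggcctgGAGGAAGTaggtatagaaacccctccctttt
Ly6c1: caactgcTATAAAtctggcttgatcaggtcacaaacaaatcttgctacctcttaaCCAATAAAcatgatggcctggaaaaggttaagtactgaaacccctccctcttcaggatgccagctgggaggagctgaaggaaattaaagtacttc
Ly6c2: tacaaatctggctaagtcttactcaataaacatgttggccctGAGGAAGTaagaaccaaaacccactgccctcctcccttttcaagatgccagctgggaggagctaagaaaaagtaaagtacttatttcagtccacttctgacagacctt
Lypd8: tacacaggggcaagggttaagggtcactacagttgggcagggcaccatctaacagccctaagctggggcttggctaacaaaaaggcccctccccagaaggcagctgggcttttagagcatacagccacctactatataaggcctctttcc

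CCAATAAA was found in both windows of Ly6g, where it is 1 site read in both, and in 1 of the 2 windows of Ly6c1, but in no window of Ly6c2 or Lypd8. It occurred in 1.12% of all 32851 RefSeq windows of the same length. TATAAA occurred with it in the same windows of Ly6g and Ly6c1, against 13.6% of all windows, and GAGGAAGT in both windows of Ly6g, 1 of Ly6c1 and both of Ly6c2, against 3.20% of all windows. TTCNNNGAA and the interferon-stimulated core, found in 8.30% and 3.44% of all windows, had no match in those of the 4 genes. These shares describe how common the letters are and test nothing, since the genes were chosen for their levels and the letters after the sequences had been seen. A match is a run of letters and not a measured site. The printed Ly6c2 stretch reads tcaataaacatg where those of Ly6g and Ly6c1 read ccaataaacatg, and tacaaatctggct where they read tataaatctggct. Its lack of a match to CCAATAAA and TATAAA there thus rests on a single letter in each. No window was found for Ly6d, which had the highest r with Ly6g among the other 8 genes.

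Ly6a was highest in DSS+UA. It stood at 230, 425 and 366 CPM in Con, at 898, 554 and 601 CPM in DSS, at 544, 384 and 432 CPM in UA+DSS and at 1007, 1962 and 1232 CPM in DSS+UA. The order of the means was DSS+UA (1400 ± 499), DSS (684 ± 186), UA+DSS (453 ± 82.4) and Con (340 ± 100 CPM, SD, n = 3). DSS+UA did not overlap DSS, and DSS did not overlap UA+DSS, but UA+DSS overlapped Con. The fitted log2 difference was 1.01 ± 0.32 (SE) between DSS and Con, -0.60 ± 0.32 between UA+DSS and DSS, 1.03 ± 0.32 between DSS+UA and DSS, and 1.63 ± 0.32 between DSS+UA and UA+DSS. DSS+UA 2, the library with the most Ly6a, held 1.75 times the mean of the other two of its group, and without it the difference between DSS+UA and DSS was 0.66.

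The 17 repair genes, which mark the fetal-like and migrating epithelium of a healing colon, did not follow that order in their mean log2 CPM. It was 5.96 to 6.89 in DSS and 5.38 to 5.60 in DSS+UA. Their summed level was 1425 to 2363 CPM in Con, 2497 to 5046 in DSS, 1125 to 1733 in UA+DSS and 2854 to 3468 in DSS+UA. The most abundant of them on average, S100a6, stood at 822 to 1484 CPM in Con and 811 to 1335 in DSS. It was at 600 to 873 CPM in UA+DSS and 1136 to 1931 in DSS+UA, and so weighed heavily in these sums. For the sums the order of DSS and DSS+UA rested on DSS 2 (5046 CPM), since DSS 1 (2715) and DSS 3 (2497) lay below all of DSS+UA. Between DSS and Con, 10 of 17 were called higher with a median log2 difference of 1.70, led by Gja1, a gap junction protein (2.15 ± 0.19 SE, edgeR adjusted p = 0.00043), and Ereg, an epidermal growth factor ligand (4.69 ± 0.52, adjusted p = 0.00123). Between UA+DSS and DSS, 10 of 17 were called lower with a median of -1.76. Between DSS+UA and DSS, where the Ly6a estimate was 1.03, the repair genes had a median of -0.88 and 4 were called lower, Ereg among them (-2.46 ± 0.47, adjusted p = 0.0210). Without DSS 2, that median was -0.18 and 2 were called lower. Between DSS+UA and UA+DSS, 5 were called higher, led by the annexins Anxa1 (1.87 ± 0.40, adjusted p = 0.0138) and Anxa3 (1.71 ± 0.39, adjusted p = 0.0169), and the count was 8 without DSS 2.

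Over the 12 libraries, r of Ly6a with the mean of the repair genes was 0.560 (rho 0.699), and 0.709 without DSS 2 and UA+DSS 2. After the group means were subtracted it was -0.318. Ly6a and the summed repair genes were thus both higher in every DSS and DSS+UA library than in every Con and UA+DSS library. By mean log2 CPM the repair genes were higher in every DSS library than in DSS+UA, unlike Ly6a. By their sums, in which S100a6 weighed most on average, only DSS 2 lay above DSS+UA. Within groups r was below 0. With the mean of 17 interferon response genes, r was -0.0777 over all libraries and 0.780 after the group means were subtracted. DSS+UA 2, with the most Ly6a, also had the largest interferon sum of its group (1472 CPM, against 353 and 625), and Con 1, with the least Ly6a, had the smallest of Con (454, against 2187 and 1644). In UA+DSS, in contrast, the library with the largest interferon sum (UA+DSS 2, 2451 CPM) had the least Ly6a, and in DSS the library with the least Ly6a (DSS 2) held 736 CPM, between the others at 826 and 314. Between groups the interferon sum ran otherwise, with 314 to 826 CPM in DSS and 1062 to 2451 CPM in UA+DSS. Of the 17 genes, edgeR called 0 between DSS and Con, where 2 had an unadjusted p under 0.05 and DESeq2 called 1, and the lowest adjusted p was that of Irf7, an interferon-induced factor (0.0501). The part that interferon genes have in the level of Ly6a was not tested.

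**Figure D3:**
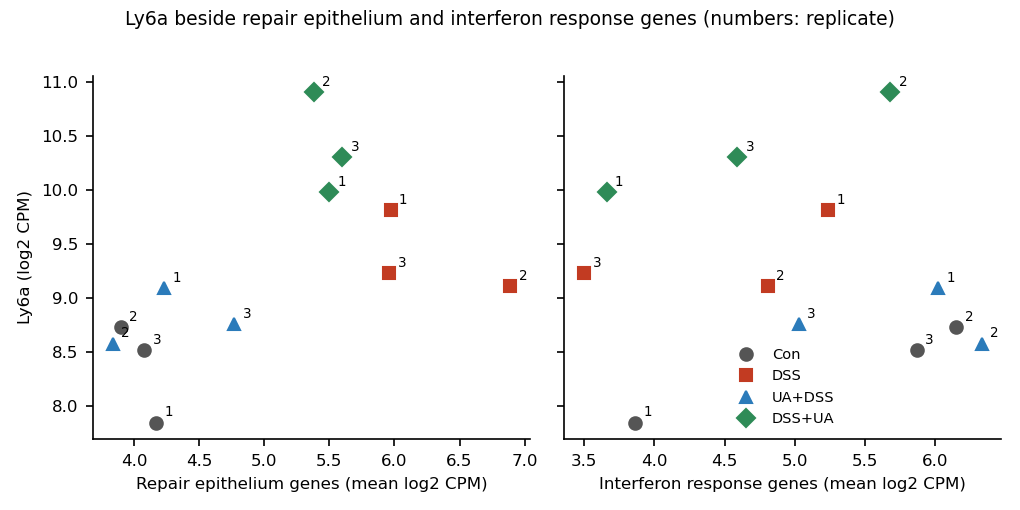
Ly6a (log2 CPM, vertical axis) in 12 libraries against the mean log2 CPM of repair epithelium genes and of interferon response genes, with colour and shape for the group and a number for the replicate. The DSS libraries lie to the right of DSS+UA for the repair genes but below them for Ly6a, and within Con and within DSS+UA the points climb with the interferon genes.

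Of the other cells that carry Ly6A, endothelium moved differently. The 12 endothelial genes summed to 336 to 426 CPM in Con, 451 to 758 in DSS, 247 to 288 in UA+DSS and 208 to 216 in DSS+UA, so the group with the most Ly6a had the least endothelial RNA, and r was -0.413. Of these genes, 10 of 12 were called lower in DSS+UA than in DSS, led by Vwf and Tie1. The T cell genes summed to 35.5 to 54.4 CPM in Con, 91.1 to 207 in DSS, 50.4 to 133 in UA+DSS and 63.3 to 138 in DSS+UA. Their r with Ly6a was 0.542, close to that of the repair genes, and 0.289 after the group means were subtracted. With the neutrophil genes r was 0.496, and -0.526 after the group means were subtracted, and with the position score it was 0.483 and -0.392, the latter 0.414 without Con 1. The 5 genes most like Ly6a were Ppp1ca, a catalytic subunit of protein phosphatase 1 (r = 0.981), and the proteasome subunit genes Psmb2 (0.977), Psma6 (0.975), Psmd13 (0.97) and Psma3 (0.962). Psmb2 averaged 71.4 CPM in Con, 90.7 in DSS, 80.1 in UA+DSS and 132 in DSS+UA.

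The 2 Ly6C genes diverged in DSS+UA. Ly6c1 stood at 58.6, 50.9 and 41.9 CPM in Con, at 264, 152 and 112 CPM in DSS, at 42.7, 51.1 and 50.9 CPM in UA+DSS and at 259, 226 and 234 CPM in DSS+UA. Ly6c2 stood at 10.6, 22.9 and 32.0 CPM in Con, at 53.9, 69.7 and 45.7 CPM in DSS, at 17.9, 13.8 and 13 CPM in UA+DSS and at 15.8, 55.6 and 18.8 CPM in DSS+UA. Both were above Con and UA+DSS in all 3 DSS libraries, while in DSS+UA Ly6c1 overlapped DSS and 2 of 3 Ly6c2 values lay among those of Con. The ratio of Ly6c1 to Ly6c2 was 2.18 to 4.89 in DSS, 2.38 to 3.93 in UA+DSS and 1.31 to 5.50 in Con, but 16.4, 4.06 and 12.4 in DSS+UA.

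The fitted log2 difference of Ly6c1 was 1.80 ± 0.27 (SE) between DSS and Con, -1.87 ± 0.27 between UA+DSS and DSS, 0.44 ± 0.26 between DSS+UA and DSS and 2.31 ± 0.28 between DSS+UA and UA+DSS. That of Ly6c2 was 1.37 ± 0.49, -1.93 ± 0.50, -0.92 ± 0.48 and 1.01 ± 0.49 in the same order, and without DSS+UA 2 its last 2 values were -1.75 and 0.24. The 12 monocyte genes summed to 1009 to 1101 CPM in Con, 2187 to 4819 in DSS, 1178 to 1562 in UA+DSS and 1545 to 3795 in DSS+UA. Outside DSS most of it came from Plac8, at 641 to 926 CPM in Con, 847 to 1042 in UA+DSS and 1032 to 2746 in DSS+UA. In DSS that gene was at 532 to 857 CPM. DSS+UA 2, with the most Ly6c2 of its group, also had the largest monocyte sum. Of these genes 11 were called higher in DSS than in Con, led by F13a1, a clotting factor subunit of macrophages (2.99, edgeR adjusted p = 0.00133), and Vcan, a matrix proteoglycan (2.57, adjusted p = 0.00274). In DSS+UA against DSS, F13a1 (-3.24, adjusted p = 0.00387) and Vcan (-2.02, adjusted p = 0.0202) were called lower and Plac8 (1.26, adjusted p = 0.0485) higher. There 11 of the 12 estimates were below 0 with a median of -1.86. Without DSS 2, 9 were below 0 with a median of -0.78. The part of shared sequence in the Ly6c1 and Ly6c2 values was not tested.

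Ly6i was low throughout, and 1 library decided its values. It stood at 0.361, 0.0554 and 0.694 CPM in Con, at 1.58, 11.2 and 0.262 CPM in DSS, at 0.705, 0 and 0.0531 CPM in UA+DSS and at 0.842, 1.05 and 1.66 CPM in DSS+UA. No count in UA+DSS 2 allows up to 0.187 CPM (3 counts). DSS 2, the library rich in neutrophil genes, held 12.2 times the Ly6i of the other two DSS libraries on average. The log2 difference between DSS and Con was 3.53 ± 1.33 (SE) and was 1.31 without DSS 2, and between UA+DSS and DSS it was -4.12 ± 1.41 and -1.90 without DSS 2. Between DSS+UA and DSS it was -1.88 ± 1.20, and 0.36 without DSS 2.

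Ly6d, the squamous gene of the family, had the highest r with Ly6g among the other 8 genes. It stood at 9.50, 3.44 and 4.11 CPM in Con, at 40.0, 23.8 and 13.3 CPM in DSS, at 10.8, 4.49 and 9.88 CPM in UA+DSS and at 25.3, 22.4 and 20.9 CPM in DSS+UA. As for Ly6g, DSS and DSS+UA lay above Con and UA+DSS, and Con 1 was the highest Con library, at 2.52 times the mean of the others. The log2 difference was 2.18 ± 0.49 (SE) between DSS and Con, -1.62 ± 0.48 between UA+DSS and DSS, -0.17 ± 0.46 between DSS+UA and DSS and 1.45 ± 0.47 between DSS+UA and UA+DSS. With the position score as a covariate these were 1.96, -0.20, -0.70 and -0.50, with the same limits as for Ly6g. Of 12 squamous epithelium genes 7 were tested. Their summed level was 74.1 to 186 CPM in Con, 222 to 245 in DSS, 154 to 181 in UA+DSS and 333 to 353 in DSS+UA, most of it from Sfn. The keratin gene Krt13, at 0.0554 to 0.214 CPM in Con, was at 5.51 to 14.0 CPM in DSS, 0.125 to 1.38 in UA+DSS and 3.28 to 23.8 in DSS+UA, and was called higher in DSS than in Con and in DSS+UA than in UA+DSS (edgeR adjusted p = 0.00306 and 0.0109). The part of squamous cells in the Ly6d level was not tested.

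Ly6e was even across the groups. It stood at 304, 623 and 670 CPM in Con, at 650, 439 and 372 CPM in DSS, at 485, 509 and 472 CPM in UA+DSS and at 468, 913 and 663 CPM in DSS+UA. Neighbouring groups in the order of means overlapped, and the 4 fitted log2 differences lay between -0.12 and 0.48, each with an SE of 0.33. The lowest Con library was again Con 1, at 0.471 of the mean of the others, and the highest DSS+UA library was DSS+UA 2, at 1.61 times the others, as for Ly6a, with which its r was 0.643.

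Ly6h was at the edge of detection. It stood at 0, 0.0554 and 0.534 CPM in Con, at 0.432, 1.25 and 0.525 CPM in DSS, at 1.09, 0.687 and 1.17 CPM in UA+DSS and at 0.316, 0.556 and 0.0554 CPM in DSS+UA, from 11 to 50 counts a group. No count in Con 1 allows up to 0.155 CPM. UA+DSS lay above DSS+UA in all 3 libraries, and groups next to each other in the order of means overlapped. The 12 enteric neuron genes summed to 33.1 to 86.8 CPM in Con, 94.3 to 149 in DSS, 73.6 to 113 in UA+DSS and 33.7 to 127 in DSS+UA, and of these Tubb3, a neuronal tubulin, was called higher in DSS than in Con.

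Lypd8, the most abundant of the 9, was low in DSS. It stood at 3014, 7601 and 5713 CPM in Con, at 3351, 1040 and 3211 CPM in DSS, at 7004, 8463 and 6732 CPM in UA+DSS and at 3802, 10909 and 7147 CPM in DSS+UA. All libraries of UA+DSS and of DSS+UA lay above those of DSS, while Con 1 lay within the DSS range. The log2 difference was -1.10 ± 0.51 (SE) between DSS and Con, 1.54 ± 0.51 between UA+DSS and DSS, 1.52 ± 0.51 between DSS+UA and DSS and -0.02 ± 0.50 between DSS+UA and UA+DSS. Its r was negative with Ly6g (-0.465), Ly6d (-0.405) and Ly6i (-0.613). The 14 colonocyte genes summed to 9639 to 20825 CPM in Con, 4820 to 10965 in DSS, 18451 to 21979 in UA+DSS and 9830 to 15650 in DSS+UA, with DSS 2, the library lowest in Lypd8, also lowest here. Among them Car1, a carbonic anhydrase of the proximal colon, and Vil1, a protein of the brush border, were called higher in UA+DSS than in DSS (edgeR adjusted p = 0.0200 and 0.0222).

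Across the 9 genes, DSS against Con gave 3 called higher (Ly6a, Ly6c1 and Ly6d; edgeR, adjusted p under 0.05) and 0 lower, where 13.9% and 12.6% of all tested genes were called higher and lower. In 5 of the 9 (also Ly6c2 and Ly6g) the groups did not overlap, against 41.3% of all tested genes. The median log2 difference of the 9 was 1.80, and that of all tested genes was -0.03. The call of Ly6a was lost without Con 1, Con 3, DSS 1, UA+DSS 3 or DSS+UA 3. Those of Ly6c1 and Ly6d held when any single library was left out. UA+DSS against DSS gave 0 higher and 4 lower (Ly6c1, Ly6c2, Ly6d and Ly6g), where 8.21% and 10.5% of all genes were called. In 6 of the 9 the groups did not overlap, with Lypd8 higher and Ly6a, Ly6c1, Ly6c2, Ly6d and Ly6g lower, against 42.9% of all genes, and the median was -1.62 against -0.02. Of the 4 lower calls, only that of Ly6c1 remained without DSS 1, DSS 2, UA+DSS 1 or UA+DSS 2, 2 remained without UA+DSS 3, DSS+UA 1 or DSS+UA 3, and 0 with the position score as a covariate.

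DSS+UA against DSS gave 0 of the 9 called by edgeR, 2 at an unadjusted p under 0.05, 2 by DESeq2 (Ly6a and Lypd8) and 0 by limma-voom, where edgeR called 2.54% of all genes higher and 5.0% lower. Ly6a and Lypd8 were also the 2 genes whose groups did not overlap, both higher in DSS+UA, against 34.8% of all genes, and the median was 0.33 against 0.02. Without Con 1 or without DSS 1, edgeR called 1 of the 9. The comparisons of UA+DSS and of DSS+UA with DSS share the 3 DSS libraries. DSS+UA against UA+DSS gave 3 called higher (Ly6a, Ly6c1 and Ly6g) and 0 lower, where 9.23% and 7.54% of all genes were called. In 6 of the 9 the groups did not overlap, with Ly6h lower and Ly6a, Ly6c1, Ly6d, Ly6g and Ly6i higher, against 45.3% of all genes, and the median was 1.45 against -0.01. The 3 calls became 1 (Ly6c1) without UA+DSS 2 and 0 with the position score as a covariate. That of Ly6g was also lost without UA+DSS 1, DSS+UA 1, DSS+UA 2 or DSS+UA 3. The 9 genes were chosen for these values, so the counts describe them and carry no test.

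**Figure D4:**
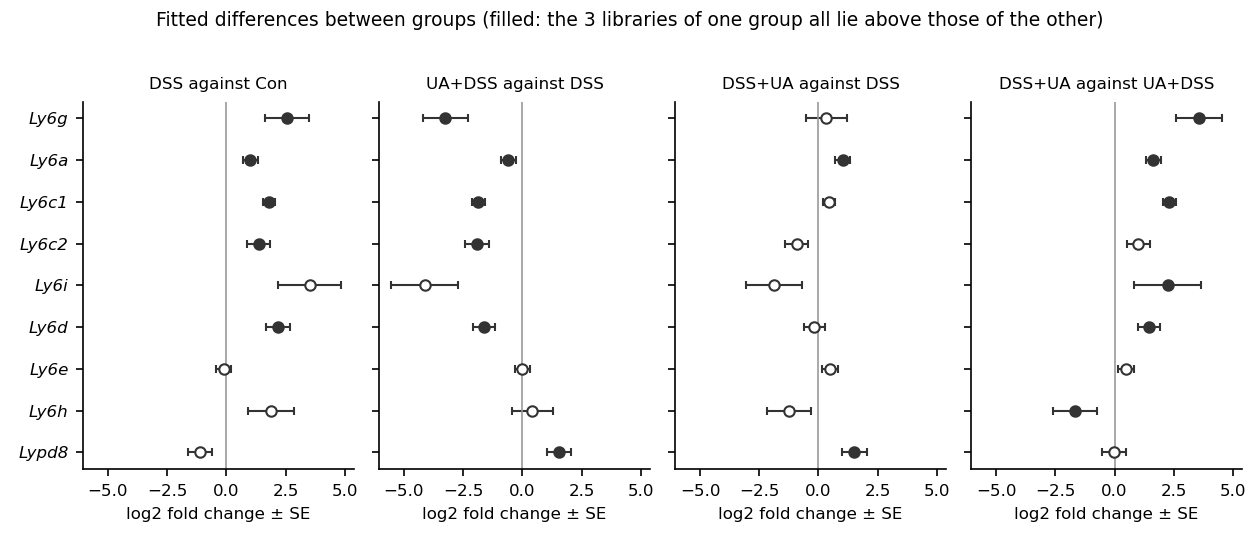
Fitted log2 fold change with its SE (horizontal axis) of the 9 Ly6 family genes in 4 comparisons of 3 against 3 libraries, with filled points where the libraries of the groups do not overlap. Ly6g, Ly6c1 and Ly6d lie to the right for DSS against Con, to the left for UA+DSS against DSS, near 0 for DSS+UA against DSS and to the right for DSS+UA against UA+DSS, and Lypd8 lies on the other side of 0 in the first 2 panels.

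Of 36 other genes with the Ly6/uPAR domain, 15 passed the filter on low counts, and these had not been chosen for their levels in the way the 9 had. DSS against Con called 3 of the 15 higher and 5 lower. Plaur, the urokinase receptor of migrating and myeloid cells, stood at 6.30 to 9.09 CPM in Con and at 55.2, 528 and 44.7 CPM in DSS (log2 difference 4.70 ± 0.92 SE, edgeR adjusted p = 0.00655), with its highest value in DSS 2. Gml (4.67 ± 1.07, adjusted p = 0.0107) and Gml2 (5.32 ± 0.96, adjusted p = 0.00429) were also higher, from at most 0.0554 CPM in Con to at most 1.68 CPM in DSS. Lower in DSS were Spaca4 (-2.43 ± 0.41, adjusted p = 0.00332), Ly6g6d (-2.44 ± 0.48, adjusted p = 0.00602), Ly6g6f (-3.49 ± 0.73, adjusted p = 0.00748), Ly6g6c (-2.58 ± 0.75, adjusted p = 0.0273) and Ly6g6e (-1.52 ± 0.49, adjusted p = 0.0426). The Ly6g6 genes, relatives of Ly6g in name, were thus lower in DSS than in Con, with DSS means of 0.0979 to 4.78 CPM. Elsewhere they were mixed beside Ly6g. Con 1, the Con library with high Ly6g, held the highest level of the 12 libraries of Ly6g6d (9.24 CPM), Ly6g6e (22.6) and Ly6g6f (1.39). Ly6g6e averaged 11.6 CPM in DSS+UA against 4.36 in UA+DSS. Between UA+DSS and DSS (Ly6g -3.26), estimates were 2.42 for Ly6g6f, 1.08 for Ly6g6d, 0.52 for Ly6g6c and -0.13 for Ly6g6e. Between DSS+UA and UA+DSS (Ly6g 3.58), they were -3.18, 0.28, -1.07 and 1.40 in the same order.

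UA+DSS against DSS called Plaur (-3.73 ± 0.88, edgeR adjusted p = 0.0199) and Gml2 (-2.39 ± 0.72, adjusted p = 0.0401) lower, and Spaca4 (1.74 ± 0.40, adjusted p = 0.0169) and Ly6g6f (2.42 ± 0.76, adjusted p = 0.0459) higher. DSS+UA against DSS called 1 of the 15, Gpihbp1, the lipoprotein lipase anchor of capillaries, which was lower (-1.38 ± 0.35, adjusted p = 0.0417) as were the endothelial genes. The Plaur difference there was -2.61 ± 0.84 (adjusted p = 0.0742), against 0.33 for Ly6g, and without DSS 2 it was -0.53 (adjusted p = 0.431). Without that library the other Plaur values were 2.63 between DSS and Con and -1.67 between UA+DSS and DSS, both still called, and the latter call was lost without UA+DSS 2 or UA+DSS 3 (adjusted p = 0.0924 and 0.07). DSS+UA against UA+DSS called Gml2 higher (2.66 ± 0.72, adjusted p = 0.0298) and Ly6g6f lower (-3.18 ± 0.84, adjusted p = 0.0275). In this and in both comparisons of a UA group with DSS, treatment and position cannot be told apart. The calls of Ly6g6c and Ly6g6e between DSS and Con, of Gpihbp1, of Spaca4 between UA+DSS and DSS, and of Ly6g6f and Gml2 in the comparisons with UA+DSS were each lost when some single libraries were left out. The other 6 tested genes (Ly6f, Ly6g5b, Lynx1, Lypd6b, Cd59a and 2010109I03Rik) were called in none of the 4 comparisons by edgeR, and their lowest adjusted p was 0.0551 (Ly6f, DSS against Con). The median log2 difference of the 15 was 0.27, -0.08, 0.26 and 0.28 in the 4 comparisons.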

How the data were processed

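Colon RNA of 12 mice was sequenced. Per the labels and methods, the authors checked reads with FastQC, mapped them to GRCm38 with HISAT2 and deposited whole-number read counts per Ensembl gene, with no normalization. Their notes also list Cuffdiff. Versions, annotation release, strand and the treatment of multi-mapping reads: not given in the sources used here.

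Counts were scaled by TMM (factors 0.871 to 1.09) and tested with edgeR 4.0.16 (R 4.3.3; robust quasi-likelihood, filterByExpr, all 12 libraries, group means, Benjamini-Hochberg over 17658 genes, threshold 0.05), which was tested on simulated data. SE is the log2 difference over the square root of F. CPM are per library after TMM; log2 CPM have a prior count of 2. No libraries held identical counts. Nothing names separate cages or cohorts, so p-values measure the spread between these mice. Intervals and floors cover counting error only.

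The 9 genes, all gene lists and the questions were chosen with earlier results of these data known. Named genes were the 9, S100a8, Hoxb13, Hoxd13, tested genes with the Ly6/uPAR domain, the 5 genes most like Ly6g and Ly6a, and of each list the 3 most abundant and the 2 called genes with the smallest p in each comparison; 1 gene that this rule names is not reported here. Of 181 listed genes, 7 had no match by symbol. Alternatives were other scalings, filters, prior counts, tools (limma 3.58.1, DESeq2 1.42.0), a replicate block, a position covariate and leaving out each library.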

Additional observations from a re-analysis of the deposited data

Results flagged for a closer look

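Ly6a lay on opposite sides of DSS in the UA groups. Its 3 UA+DSS libraries all lay below the 3 DSS libraries (log2 difference -0.60) and its 3 DSS+UA libraries all lay above them (1.03). Both use the same DSS libraries, and this difference between the UA groups was not tested, since the gene was chosen for its levels. Genes of the endothelium, which also carries Ly6A, were lowest in DSS+UA, at 208 to 216 CPM in all. Interferon genes ran with Ly6a within Con and within DSS+UA, but not within DSS or UA+DSS. The part of either in the Ly6a level was not tested. The position score was -5.70 to -4.16 in UA+DSS, 0.37 to 3.10 in DSS and 4.11 to 5.06 in DSS+UA. These ranges do not overlap, so treatment and position cannot be told apart between the UA groups or between either of them and DSS.

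Ly6g6f was lower in DSS+UA than in UA+DSS, with a log2 difference of -3.18 (edgeR adjusted p = 0.0275), from 0.372 to 0.705 CPM in UA+DSS to at most 0.111 CPM in DSS+UA. Gml2 was higher there, with a log2 difference of 2.66 (adjusted p = 0.0298), from 0.0624 to 0.385 CPM to 0.554 to 1.74 CPM. Both genes are near the limit of detection in all groups, and for both, too, treatment and position cannot be told apart.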

How the results depend on the processing

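Calls among the 9 genes for DSS against Con were 3, against 5 with the position covariate or limma-voom, 6 with DESeq2 and 2 to 4 with 1 library left out. For UA+DSS against DSS they were 4, against 1 with no low-count filter, 0 with the position covariate and 1 to 5 with 1 library left out. For DSS+UA against DSS they were 0, against 2 with DESeq2 and 0 to 1 with 1 library left out. For DSS+UA against UA+DSS they were 3, against 0 with the position covariate and 1 to 4 with 1 library left out. With that covariate, 3 of all genes were called for UA+DSS against DSS and 0 for DSS+UA against UA+DSS, since the score separates those groups, and the Ly6g value of the latter turned to -0.43. Other signs turned with it too. For DSS+UA against UA+DSS, Ly6d went from 1.45 to -0.50, Ly6h from -1.67 to 1.42 and Lypd8 from -0.02 to 1.11. For UA+DSS against DSS, Ly6h went from 0.41 to -1.70. For DSS+UA against DSS, Ly6g went from 0.33 to -0.96, and for DSS against Con, Ly6e went from -0.12 to 0.10.

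Calls among the 15 other family genes for DSS against Con were 8, against 4 with at least 10 counts in every sample, a filter that leaves fewer genes. For UA+DSS against DSS they were 4, against 1 with no filter, 2 with at least 10 counts, 1 with only the 2 groups compared, 2 with the replicate block, 0 with the position covariate and 0 to 3 with 1 library left out. For DSS+UA against DSS the 1 call became 0 with no filter, the 2 groups alone, the replicate block or the position covariate, 2 with DESeq2 and 0 to 2 with 1 library left out. For DSS+UA against UA+DSS the 2 calls became 0 with at least 10 counts or the position covariate, 1 with the 2 groups alone, 5 with DESeq2 and 0 to 6 with 1 library left out. The cause of the other changes was not tested.

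Replicate numbers do not pair the mice: deviations of same-numbered libraries correlated at -0.216 to 0.187. With the replicate block, all-gene calls for DSS+UA against DSS fell from 1331 to 552, and 2, 4, 0 and 4 of the 9 genes were called in the 4 comparisons. DESeq2 called 3107 there.

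The r of Ly6g after the group means were subtracted was 0.286 with S100a8, and without Con 1 it was 0.443 with S100a8, 0.9 with Hoxb13 and 0.109 with Hoxd13, and without UA+DSS 3 it was 0.121 with S100a8 and 0.944 with Hoxd13. Without both it was 0.24, 0.323 and 0.716 with S100a8, Hoxb13 and Hoxd13. These alternatives were chosen after seeing the data. Without 2 libraries r with Hoxb13 was 0.501. The r of Ly6a with repair genes turned to -0.318 after subtraction, and -0.29 without Con 1. Its r with interferon genes (-0.0777) ranged from -0.340 to 0.0477 with 1 library left out, turning to 0.02 without UA+DSS 2 and 0.0477 without DSS+UA 1, and turned to 0.0765 without 2 libraries, and 0.780 after subtraction (0.667 without Con 1). With neutrophil genes it turned to -0.526 (-0.612 without Con 1) and with position to -0.392. Scaling by library size alone moved the median of all genes by -0.13 for DSS+UA against DSS and by at most 0.1 in size otherwise. Of the other values of the 9 genes, 745 moved by less than the spread between replicates and 37 by more.

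With 3 mice a group, Ly6h and Ly6i rest on few counts, and counts shared among Ly6a, Ly6c1 and Ly6c2 cannot be separated here.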
